A study of Mus musculus with 6 samples.

Results

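Ribosome biogenesis and RNA polymerase I genes were followed in mouse bone marrow cells in which Cxxc5, the gene of a CXXC-type zinc finger factor, was knocked down. The set holds 50 genes taken by name from the 49671 genes of the deposited counts table: 2 subunits of RNA polymerase I, 6 core proteins of small nucleolar ribonucleoproteins (snoRNPs), 3 abundant nucleolar phosphoproteins, 2 nucleolar regulators, 14 proteins of the small subunit processome, 6 later factors of the small subunit and 17 factors of the large subunit. The list was drawn up with earlier results of these libraries in view, and Ftsj3 entered it because it was higher in all 3 pairs of libraries with equal replicate number. Differences between shCxxc5 and shCtrl libraries are therefore given as descriptions of the 50 genes and not as support for a change of the set.

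The cells were marrow of BALB/c mice, enriched for stem and progenitor cells and infected with a GFP-marked retrovirus. The control group, shCtrl, received a virus that targets no mouse gene, and the other group, shCxxc5, a virus that knocks down Cxxc5, with 3 libraries in each, numbered 2, 3 and 4. Both groups were thus infected, sorted as GFP-positive LSK cells (Lineage-negative, Sca-1-positive and Kit-positive, the fraction with blood stem cells and multipotent progenitors) and pooled from several animals, with 20000 to 50000 cells per RNA sample. The labels give no age of the mice and do not say how many hairpins were used or what a replicate number stands for, so the spread behind each p-value is that of these 6 libraries and may be technical. In such pooled RNA, fewer cells of a type and less RNA per cell cannot be told apart.

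Ribosomes are built mainly in the nucleolus. RNA polymerase I transcribes the long precursor of the ribosomal RNAs, snoRNPs guide its methylation and pseudouridylation, the small subunit processome folds and cuts it, and separate sets of assembly factors carry the precursors of the small and large subunits to the cytoplasm. Blood stem cells are known for a low rate of protein synthesis that rises in their dividing progeny, and MYC proteins are known activators of many of these genes.

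Libraries held 15002414 to 27754019 counts. Cxxc5 lay at 82.2, 59.9 and 57.9 CPM (counts relative to the TMM-scaled library size) in shCtrl replicates 2, 3 and 4 and at 6.74, 17.4 and 17.9 CPM in shCxxc5, lower in every shCxxc5 library. An exact two-sided permutation test of its log2 CPM gave p = 0.1, the smallest that 3 against 3 allows. Both replicate 2 libraries stood apart from the other 4. The sort marker gene Ly6a (Sca-1) lay at 46.4 and 33.1 CPM there against 703 to 804 CPM elsewhere, while Kit ran from 82.4 to 110 CPM in all 6. Summed over 10 megakaryocyte markers, the level was 6920 CPM in shCtrl replicate 2, 1640 CPM in shCxxc5 replicate 2 and 297 to 481 CPM in the rest. The sum over 10 granulocyte and monocyte markers was 5890 CPM in shCxxc5 replicate 2 and 886 to 1400 CPM in the other 5, and over 8 mast cell and basophil markers it was 1610 CPM against 283 to 464 CPM. The sum of 10 erythroid markers was 1100 CPM in shCxxc5 replicate 2 and 438 to 565 CPM elsewhere, with Tfrc, a gene also active in other dividing cells, as its main part (365 to 832 CPM). Of 7 erythroid markers tested, 6 were called higher in replicate 2, against 17.7% of all tested genes, with a median log2 difference of 3.08. Gata1 lay at 136 and 80.6 CPM in the replicate 2 libraries and at 6.91 to 10.7 CPM in the others. LSK and stem cell markers summed to 1740 and 1150 CPM in the replicate 2 libraries and to 2500 to 2590 CPM in the others, a sum that includes Ly6a. The list was not lower as a whole. Of its 10 genes, 5 were called higher and 3 lower in replicate 2, with a median log2 difference of 0.347. Over all tested genes, 17.7% were called higher and 18.7% lower. Lymphoid markers stayed low, with B cell sums of 14.7 to 33.7 CPM and T cell sums of 23.9 to 72.5 CPM, and 1 of 8 T cell markers was at 0. Counts for the 50 genes are given over all 6 libraries and again for replicates 3 and 4, and the part of these other cell types in them was not tested.

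All 50 genes were detected in every library, from 198 counts for Fbl in its lowest library to 20997 for Npm1 in its highest, and all 50 passed the filter on low counts. Levels between genes were compared as TPM, which divides each count by the length of all annotated exons. Npm1, which encodes the nucleolar chaperone nucleophosmin, led with 684 ± 96.7 TPM (SD, n = 6), followed by the snoRNP protein gene Nhp2 at 371 ± 42.7 TPM and the large subunit factor gene Noc2l at 339 ± 40.8 TPM. RNA polymerase I subunit genes were in the lower part of the order, Polr1b at 50.1 ± 7.73 TPM and Polr1a at 40.2 ± 8.02 TPM. The lowest was Fbl, the methyltransferase of box C/D snoRNPs, at 10.9 ± 3.73 TPM. Of 49 steps between neighbours in the order, 3 had library ranges that did not overlap: Npm1 above Nhp2, Noc2l above Ddx21, and Wdr12 above Fbl. The order depends on the annotated exon length, which joins the exons of all transcripts of a gene. Wdr12, with 11955 bases, had a mean of 110 CPM but 23.5 TPM. Imp3, with 924 bases, had 69.6 CPM but 193 TPM. Which transcripts the cells use was not examined, so the order is approximate.

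**Figure D1:**
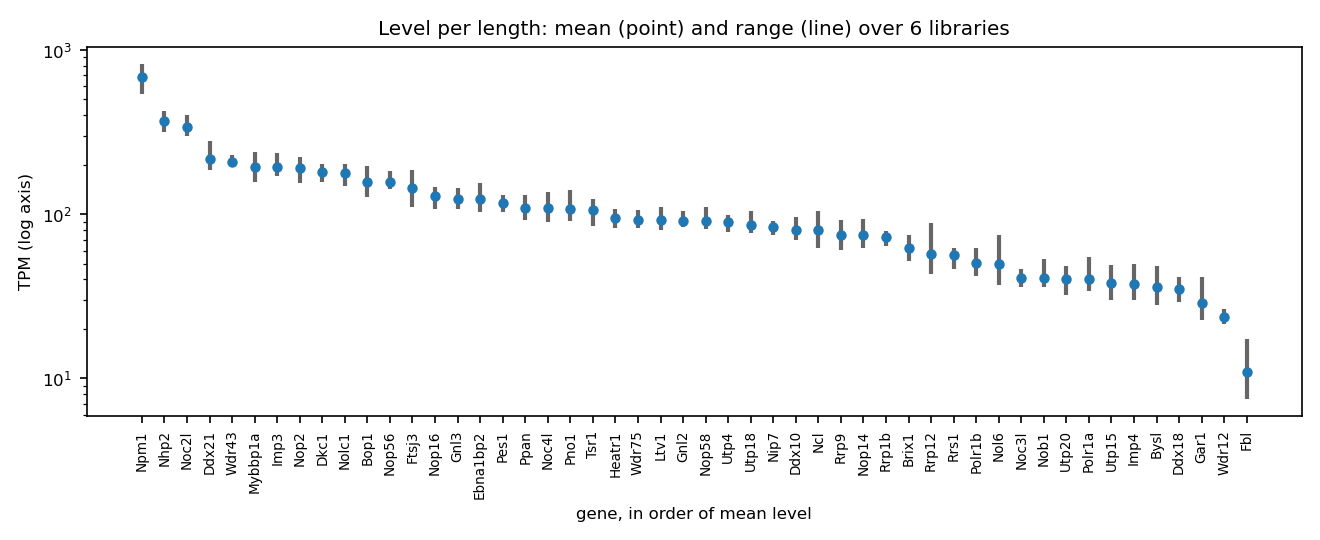
Level of each of the 50 genes in TPM on a log axis, with the mean over 6 libraries as a point and the lowest to highest library as a line. Npm1 stands at the top with 684 TPM and Fbl at the bottom with 10.9 TPM, and most neighbouring ranges overlap.

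Some of these levels are uncertain because the genes have near-identical copies. Annotated pseudogenes matched 8 of the 50 transcripts at 95% identity or more over at least 200 bases, and they covered 87.8% of the longest coding transcript of Ddx18, 82.2% of Fbl, 60.5% of Pes1, 58.7% of Imp3 and 53.8% of Npm1. Pseudogenes alike to Npm1 held 62.9 CPM together, against 713 CPM for Npm1 itself, both relative to library totals without TMM. The sources used here do not give the treatment of reads with several matches, so levels of these genes, Fbl among them, are uncertain. Snord and Snora genes, whose RNAs guide rRNA modification, lie inside 8 of the 50 genes on the same strand (23 such genes), among them Nop56, Nop58, Ncl and Gnl3.

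Promoters were examined for the E-box CACGTG, the core motif bound by MYC and related factors, because it can be read from sequence alone. A RefSeq window of 300 bases (GRCm38.p6, 250 before to 50 after the transcription start) was found for 43 of the 50 genes; Nol6, Fbl, Rrs1, Npm1, Rrp12, Bop1 and Gnl2 had none. The motif reads the same on both strands and occurred in the windows of 11 of these 43 genes (25.6%), against 8.09% of 27025 genes with a window and 10.6% of the 13802 of them with a count above 0. It lay before the start in 3 genes (Imp4, Nop2 and Utp18) and within the first 50 transcribed bases in 8. The letters CCGGAA, the core recognised by ETS factors, searched on both strands, occurred in 48.8% of the members' windows against 26.2% of windows of genes with a count. The GC box GGGCGG stood in 74.4% against 60.6%, while GC content was 59.3% at the median in both. Each of these motifs contains the letters CG, and the members' windows held a median of 21 CG sites against 18. The part of this in the motif shares was not tested. Motifs without CG were not more frequent in the members: CCAAT occurred in 39.5% against 41.8%, and TATAAA in 6.98% against 10.2%. The genes with a count were not matched to the members for level. The stretches below belong to the 6 genes with the E-box whose library values are given further on, with the E-box in capitals and at most 12 bases on each side, on the strand of the gene. Their E-boxes begin 60 bases before the start in Nop2 and 16, 25, 38, 38 and 41 bases after it in Utp4, Tsr1, Pno1, Utp20 and Mybbp1a.
Nop2 (chr6:125131811-125131840, plus): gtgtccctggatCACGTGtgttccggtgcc
Utp4 (chr8:106893643-106893672, plus): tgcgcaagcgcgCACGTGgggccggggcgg
Tsr1 (chr11:74898092-74898121, plus): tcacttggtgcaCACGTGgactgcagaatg
Pno1 (chr11:17211540-17211564, minus): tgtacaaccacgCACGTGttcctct
Utp20 (chr10:88826765-88826789, minus): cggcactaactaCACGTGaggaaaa
Mybbp1a (chr11:72441355-72441376, plus): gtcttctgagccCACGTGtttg
A match describes these letters in the window and says nothing of binding in these cells.

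Over all 6 libraries, most of the 50 genes stood slightly higher in shCxxc5 cells, with none called. The fitted log2 fold change was above 0 for 47 of 50 genes, with a median of 0.161 (1.12-fold), against a median of -0.022 over 14637 tested genes. EdgeR's quasi-likelihood test, adjusted over all genes, called 0 of the 50, and its background was 0% of all genes called. At an unadjusted p under 0.05 were 9 of the 50 members and 575 of the 14637 tested genes. Limma-voom called 0 and DESeq2 called 1, which was Ftsj3. In 17 members every shCxxc5 library was above every shCtrl library, a pattern that 6.72% of all genes showed, and 0 members showed the reverse, which 6.35% of genes did (13.1% in either direction). Ratios within pairs were above 0 in all 3 pairs for 31 members, against 19% of all genes, and below 0 in all 3 for 0 members, against 22.4%. Since the set was proposed with this contrast in view, these counts describe it only.

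The pairs differed in how uniform the genes were. Median log2 ratios of the 50 genes were 0.061, 0.199 and 0.209 in pairs 2, 3 and 4, where all tested genes had medians of -0.038, -0.009 and -0.005. Above 0 were 31, 49 and 50 of the 50 genes. Between their quartiles the members ran in pair 2 from -0.11 to 0.24, in pair 3 from 0.15 to 0.27 and in pair 4 from 0.16 to 0.31. Across the 50 genes, the ratios in pairs 3 and 4 correlated at r = 0.698 (Spearman's rho 0.630), and those of pair 2 at r = 0.162 with pair 3 and 0.133 with pair 4. Over all tested genes r was 0.317 between pairs 3 and 4. These correlations are across genes of the same libraries, which share depth and scaling, and are given as descriptions.

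**Figure D2:**
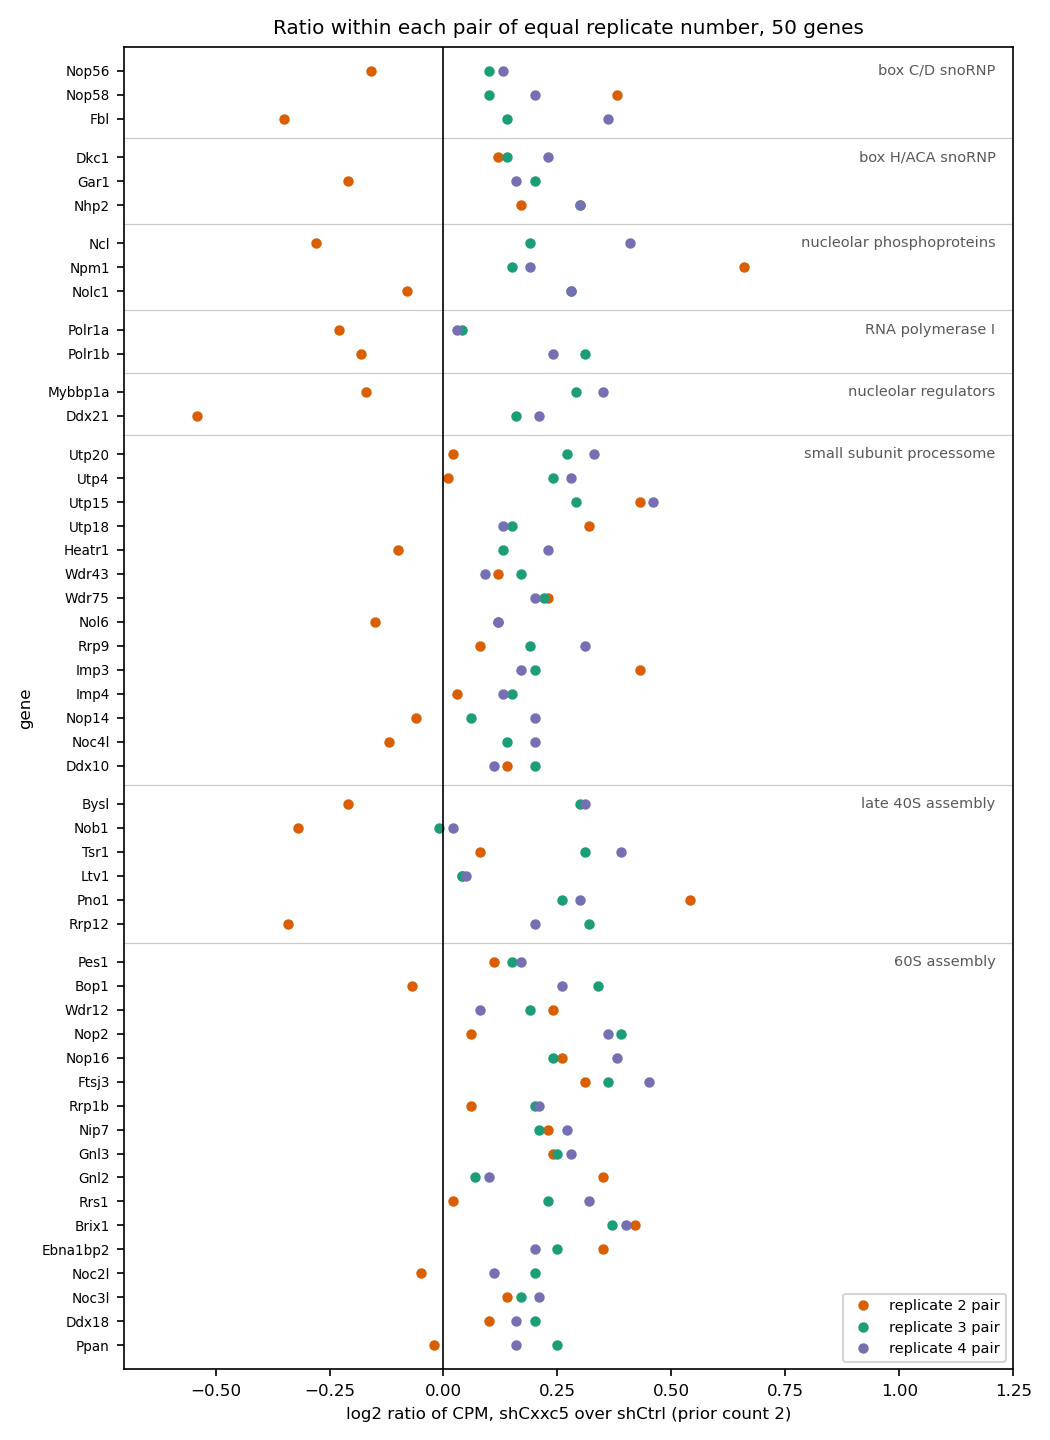
Log2 ratio of CPM, shCxxc5 over shCtrl, for each of the 50 genes (rows, grouped by role) in the pairs of replicates 2, 3 and 4 (colours). Points of pairs 3 and 4 lie right of 0 except for Nob1 at -0.01 in pair 3, while 19 genes lie left of 0 in pair 2.

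In replicates 3 and 4 alone, all 50 genes were higher in shCxxc5 cells, by a median log2 fold change of 0.211 (15.7%), where the median over 14193 tested genes was -0.003. EdgeR called 41 of the 50 higher and 0 lower, against a background of 11% of genes called higher and 9% called lower (20% in all). The members are well expressed, with mean levels of 17.4 to 715 CPM, and that background is not matched for level. Among the 8347 tested genes with a mean level at least that of the lowest member, a restriction added after the data were seen, 17.6% were called higher and 11.2% lower. With library totals as the only scaling, 36 members were higher, and the split over all genes moved from 1555 higher and 1278 lower to 1120 higher and 1606 lower. Each group has 2 libraries there, and the biological coefficient of variation was 0.0294, against 0.312 over all 6 libraries, so small differences pass. The members not called were Fbl, Gar1, Polr1a, Nol6, Nop14, Nob1, Ltv1, Gnl2 and Ddx18. S phase genes were higher as well: of 15 S phase markers, 11 were called higher and 0 lower in replicates 3 and 4, with a median of 0.158 (0.124 over all 6 libraries, with 0 called). Markers of other cell types differed there too. Megakaryocyte markers were called lower for 5 of 8 and higher for 0, and erythroid markers lower for 3 of 7 and higher for 1. Granulocyte and monocyte markers were called higher for 4 and lower for 2 of 10, and mast cell and basophil markers higher for 3 and lower for 3 of 8. The part of these lists in the result was not tested.

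Ftsj3 (ENSMUSG00000020706, chromosome 11, 106249142 to 106256079 on the minus strand of GRCm38) encodes a nucleolar methyltransferase of ribosome assembly. Its level was 217, 213 and 202 CPM in shCtrl replicates 2, 3 and 4 and 269, 274 and 276 CPM in shCxxc5. The groups did not overlap, and the ratios in pairs 2, 3 and 4 were 0.31, 0.36 and 0.45 on the log2 scale. Its log2 fold change was 0.37 (SE 0.07) over all 6 libraries and 0.41 (SE 0.04) in replicates 3 and 4, the largest of the 50 in the latter. These are the values that chose it.

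The RNA polymerase I subunits were not alike. Polr1a, the catalytic subunit gene, lay at 209, 182 and 171 CPM in shCtrl and 177, 187 and 175 CPM in shCxxc5, with overlapping groups and a log2 fold change of 0.04 (SE 0.04) in replicates 3 and 4. Polr1b, for the other large subunit of the active centre, lay at 117, 103 and 103 CPM in shCtrl and 103, 128 and 121 CPM in shCxxc5. In replicates 3 and 4 both shCxxc5 libraries of Polr1b were above both controls (0.28, SE 0.05), but in pair 2 its ratio was -0.18, and that of Polr1a was -0.23. Exons of Polr1a share 185 bases with an antisense gene, and although the kit marks strand, the strand setting of the counting is not known here.

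Box C/D snoRNPs carry the methylation of ribosomal RNA, with Nop56 and Nop58 as their scaffold. Nop58 stood at 303, 379 and 366 CPM in shCtrl and 394, 407 and 422 CPM in shCxxc5, without overlap between the groups. Nop56 stood at 244, 246 and 247 CPM in shCtrl and 219, 263 and 271 CPM in shCxxc5, below all controls in replicate 2 and above them in replicates 3 and 4. Their log2 fold changes in replicates 3 and 4 were 0.16 (SE 0.04) and 0.12 (SE 0.04). Fbl lay at 23.6, 15.0 and 13.3 CPM in shCtrl and 18.6, 16.5 and 17.2 CPM in shCxxc5, so its highest library was shCtrl replicate 2.

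Box H/ACA snoRNPs, which make pseudouridine, had ratios above 0 in all 3 pairs for 2 of 3 genes, against 19% of all genes. Nhp2 stood at 144, 152 and 155 CPM in shCtrl and 162, 187 and 191 CPM in shCxxc5 with no overlap, and was called higher in replicates 3 and 4 (0.30, SE 0.04). Dkc1, the pseudouridine synthase gene, stood at 256, 295 and 273 CPM and at 278, 324 and 319 CPM, with a ratio above 0 in each pair and overlapping groups. Gar1, the third core gene here, was not called in replicates 3 and 4 (0.19, SE 0.10).

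Among the nucleolar phosphoproteins the replicate 2 pair parted the genes. Npm1 stood at 460, 733 and 726 CPM in shCtrl and 729, 813 and 829 CPM in shCxxc5. Its low value was shCtrl replicate 2, and its ratio of 0.66 in pair 2 was the highest of the 50 genes. Ncl, the gene of nucleolin, lay at 344, 295 and 268 CPM in shCtrl and 283, 337 and 357 CPM in shCxxc5, so that pair 2 went the other way (-0.28). Nolc1, a chaperone of snoRNPs, stood at 261, 272 and 247 CPM and at 246, 329 and 300 CPM. In replicates 3 and 4 the 3 genes were called higher, by 0.18 (SE 0.03), 0.30 (SE 0.04) and 0.28 (SE 0.05) for Npm1, Ncl and Nolc1.

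The pair of nucleolar regulators was higher in replicates 3 and 4 and lower in pair 2. Mybbp1a, which binds the RNA polymerase I machinery, lay at 449, 396 and 384 CPM in shCtrl and 399, 486 and 490 CPM in shCxxc5. Ddx21, an RNA helicase gene of rRNA transcription and processing, lay at 466, 438 and 417 CPM in shCtrl and 320, 491 and 481 CPM in shCxxc5. The shCxxc5 replicate 2 library was the lowest of the 6 for Ddx21, and its pair 2 ratio of -0.54 was the lowest of the 50 genes. In replicates 3 and 4 the log2 fold changes were 0.33 (SE 0.03) for Mybbp1a and 0.19 (SE 0.03) for Ddx21.

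**Figure D3:**
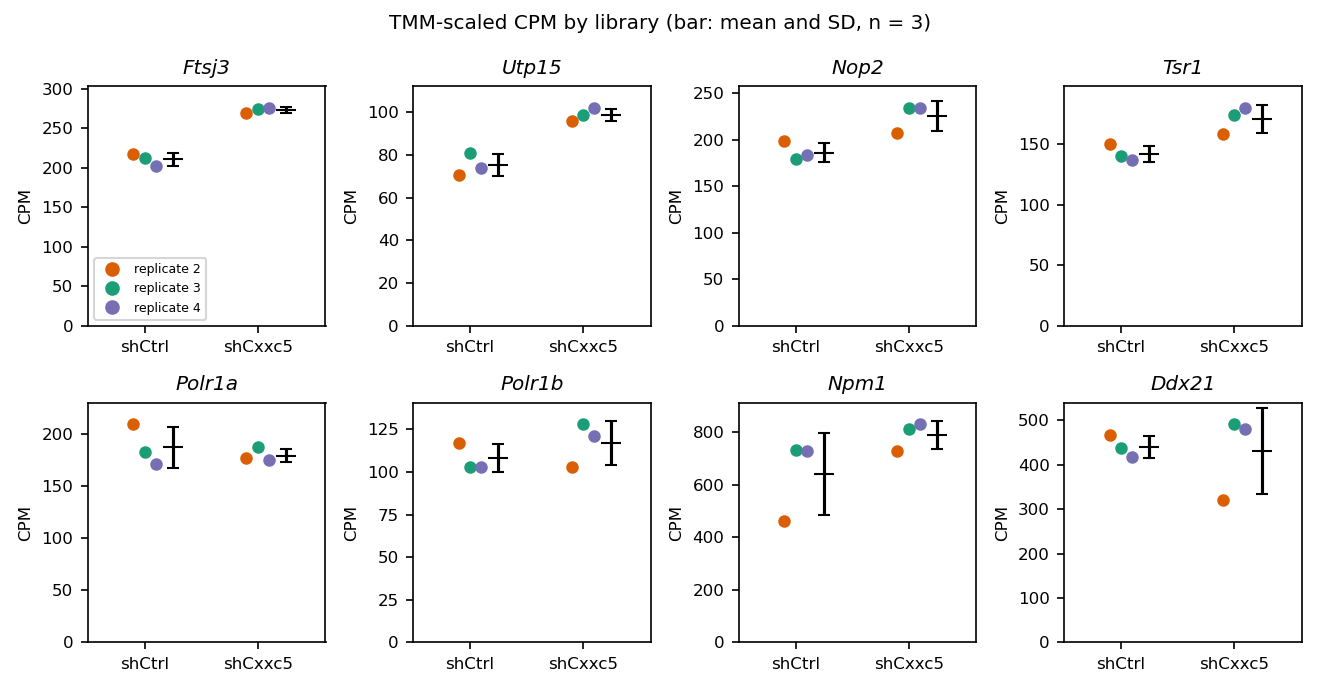
TMM-scaled CPM of 8 genes in each library, coloured by replicate number, with the mean and SD of each group (n = 3) as a black bar; axes start at 0. Ftsj3, Utp15, Nop2 and Tsr1 are higher in every shCxxc5 library, while replicate 2 departs from replicates 3 and 4 for Npm1 in shCtrl (460 CPM) and Ddx21 in shCxxc5 (320 CPM).

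The small subunit processome, which assembles on the nascent precursor RNA, was higher in replicates 3 and 4 for 14 of 14 genes, with 12 called. Over all tested genes, 49.4% were higher there and 11% were called higher. Ratios were above 0 in all 3 pairs for 10 of 14 processome genes, against 19% of all genes. Utp15, a subunit of its first-binding complex, stood at 70.7, 80.8 and 73.7 CPM in shCtrl and 95.6, 98.6 and 102 CPM in shCxxc5. Its log2 fold change of 0.37 (SE 0.05) in replicates 3 and 4 was the largest of this group, and its groups did not overlap. Utp20, a large scaffold protein gene, lay at 159, 146 and 138 CPM in shCtrl and at 161, 177 and 174 CPM in shCxxc5, where the lowest shCxxc5 library was barely above the highest control. Utp4 lay at 105, 121 and 113 CPM and at 106, 143 and 137 CPM, so its groups overlapped through shCxxc5 replicate 2.

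Wdr75, of the same complex as Utp4 and Utp15, stood at 148, 169 and 172 CPM in shCtrl and 173, 196 and 197 CPM in shCxxc5, with ratios of 0.23, 0.22 and 0.20 in pairs 2, 3 and 4. Nol6 lay at 125, 88.0 and 81.9 CPM and at 113, 95.3 and 88.8 CPM, high in both replicate 2 libraries. The other processome genes were Utp18, Heatr1, Wdr43, Rrp9, Imp3, Imp4, Nop14, Noc4l and Ddx10. Their log2 fold changes in replicates 3 and 4 lay between 0.13 for Nop14 and 0.25 for Rrp9.

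Later factors of the small subunit were divided, with 4 of 6 called higher in replicates 3 and 4, against 11% of all tested genes. Tsr1, which guards the immature subunit against early use, stood at 150, 140 and 137 CPM in shCtrl and 158, 174 and 180 CPM in shCxxc5 without overlap. Its exons share 1240 bases with the antisense gene Srr, so without strand its counts would include reads of that gene. Pno1, the partner of the Nob1 nuclease, lay at 54.8, 67.4 and 66.0 CPM in shCtrl and 79.7, 80.9 and 81.2 CPM in shCxxc5. These genes had log2 fold changes of 0.36 (SE 0.04) and 0.28 (SE 0.05) in replicates 3 and 4, and Bysl (0.31) and Rrp12 (0.27) were also called there. Nob1, whose nuclease makes the last cut of the small subunit RNA, was at 0.01 (SE 0.06), and Ltv1 at 0.05 (SE 0.05).

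Large subunit factors had ratios above 0 in all 3 pairs for 14 of 17 genes, against 19% of all genes. Their median ratios were 0.142, 0.226 and 0.213 in pairs 2, 3 and 4. Nop2, a cytosine methyltransferase gene of the large rRNA, lay at 198, 179 and 183 CPM in shCtrl and 207, 234 and 234 CPM in shCxxc5 without overlap. Bop1, of the complex with Pes1 and Wdr12, lay at 188, 157 and 159 CPM and at 180, 198 and 191 CPM, where the control of replicate 2 was above its shCxxc5 library. Gnl3, the gene of nucleostemin, a nucleolar GTP-binding protein named for its presence in stem cells, stood at 250, 273 and 283 CPM in shCtrl and 295, 325 and 343 CPM in shCxxc5. In replicates 3 and 4 their log2 fold changes were 0.38 (SE 0.04), 0.31 (SE 0.04) and 0.27 (SE 0.04).

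Brix1, a factor of the early large subunit, stood at 45.6, 66.4 and 61.6 CPM in shCtrl and 60.9, 85.7 and 81.1 CPM in shCxxc5. Both of its replicate 2 libraries were the lowest of their groups, while its ratios of 0.42, 0.37 and 0.40 in pairs 2, 3 and 4 were close. The PeBoW complex partners Pes1 and Wdr12 were at 0.16 (SE 0.04) and 0.14 (SE 0.05) in replicates 3 and 4, below Bop1. The remaining factors, Nop16, Rrp1b, Nip7, Gnl2, Rrs1, Ebna1bp2, Noc2l, Noc3l, Ddx18 and Ppan, lay between 0.09 for Gnl2 and 0.31 for Nop16. Exons of Noc2l share 598 bases with the antisense gene Samd11.

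The 11 members with an E-box in the window had a median log2 fold change of 0.26 in replicates 3 and 4 (range 0.05 to 0.38, 10 called) and the 32 with a window but no E-box a median of 0.20 (range 0.01 to 0.41, 27 called). The ranges overlap over almost their full length, and the difference was not tested. Myc itself lay at 234, 322 and 321 CPM in shCtrl and 229, 337 and 332 CPM in shCxxc5, with a log2 fold change of 0.06 (SE 0.03) in replicates 3 and 4 that did not pass. Mycn lay at 338, 205 and 223 CPM in shCtrl and 171, 204 and 199 CPM in shCxxc5. It stood at -0.08 (SE 0.04) in replicates 3 and 4, which did not pass either. Its log2 ratios were -0.99, -0.01 and -0.17 in pairs 2, 3 and 4, and 22.4% of all genes were likewise below 0 in all 3 pairs.

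Whether the shCxxc5 difference itself differed between replicate 2 and replicates 3 and 4 was examined with an interaction term over all genes. It called 22 members lower in pair 2 than in the other pairs and 5 higher, against backgrounds of 19% and 16.8% of genes (35.8% in all); the pair ratios chose the set, so these calls describe it. Among the 22 were Ddx21 (-0.73), Rrp12 (-0.61), Ncl (-0.57), Bysl (-0.52), Mybbp1a (-0.49), Polr1b (-0.46) and Polr1a (-0.27), and the 5 were Npm1 (0.49), Gnl2 (0.27), Pno1 (0.26), Imp3 (0.25) and Nop58 (0.23). Large subunit factors gave 4 and 1 of these calls among 17 genes. Ftsj3, Utp15, Wdr75, Gnl3 and Brix1 were not called, at -0.10, 0.07, 0.02, -0.03 and 0.04. Replicates 3 and 4 supply the 2 residual degrees of freedom of this fit, and the single replicate 2 libraries are assumed to vary like them; DESeq2 called 11 lower and 2 higher.

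**Figure D4:**
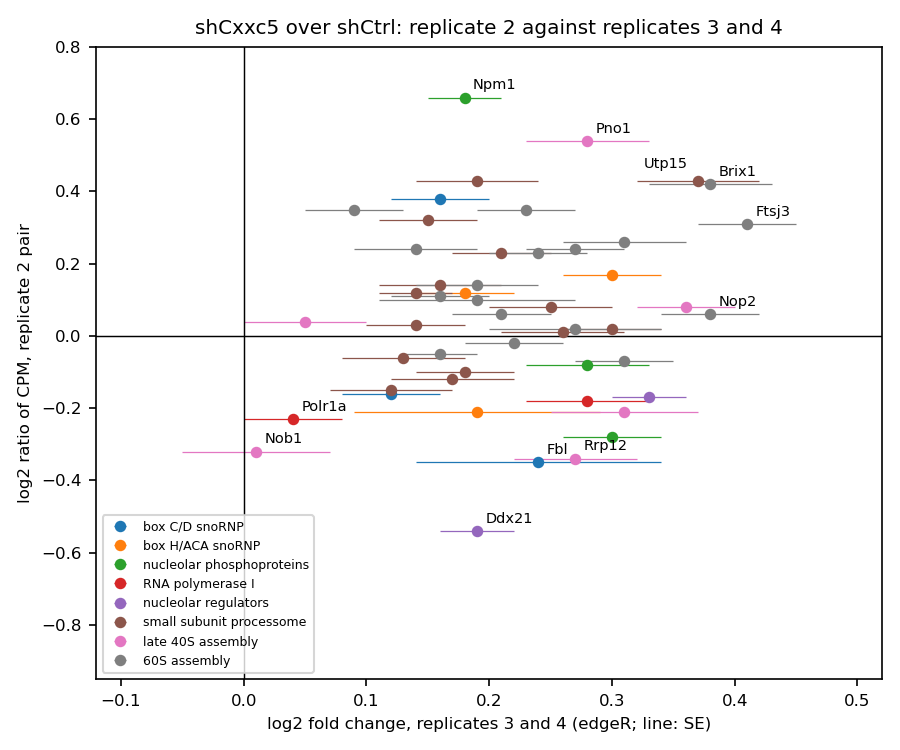
Log2 ratio in the replicate 2 pair (vertical axis) against the edgeR log2 fold change in replicates 3 and 4 with its SE (horizontal axis), for the 50 genes coloured by role. All 50 lie right of 0, while the vertical axis spreads from -0.54 for Ddx21 to 0.66 for Npm1.

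A comparison that the choice of the genes did not use is that of the replicate 2 libraries with replicates 3 and 4, with the hairpin group in the fit. The 50 genes had a median log2 difference of -0.088 in replicate 2, against -0.004 over all genes. EdgeR called 12 of the 50 members lower and 2 higher, against backgrounds of 18.7% and 17.7% of genes (36.4% in all). The count of members lower is near its background, and the count of members higher is under its background. Brix1 was lower in replicate 2 by a log2 difference of -0.47 (SE 0.07, adjusted p = 0.00344 by edgeR) and Nip7 by -0.32 (SE 0.05, adjusted p = 0.00556). Higher were Nol6, by 0.43 (SE 0.08, adjusted p = 0.00908), and Imp4, by 0.29 (SE 0.05, adjusted p = 0.00868), and Fbl did not pass at 0.45 (SE 0.15). Npm1 was lower by -0.41 (SE 0.11, adjusted p = 0.0298), a mean of unlike differences in the 2 groups: it was -0.17 without shCtrl replicate 2 and -0.67 without shCxxc5 replicate 2. The call on Npm1 was lost with library totals alone, without the group term, and without shCtrl replicate 3, shCtrl replicate 4 or shCxxc5 replicate 4. Without the group term 0 members were called lower, so the calls on Brix1 and Nip7 were lost there too. Fbl stood at 0.14 without shCtrl replicate 2 and passed at 0.72 without shCxxc5 replicate 2.

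By role, 7 of 17 large subunit factors and 3 of 14 processome genes were called lower in replicate 2. Over all tested genes, 18.7% were called lower and 17.7% higher. RNA polymerase I, the regulators, box C/D proteins and later small subunit factors gave 0 calls. S phase markers were lower there for 11 of 15 genes, with a median of -0.306, and the megakaryocyte markers were higher for 9 of 9 tested; their part in the members' values was not tested. The count of members called lower depended on single libraries. It was 30 without shCtrl replicate 2, 18 without shCxxc5 replicate 2, 2 without shCtrl replicate 3, 4 without shCtrl replicate 4, 3 without shCxxc5 replicate 3 and 5 without shCxxc5 replicate 4, and it was 4 when scaling used library totals alone, which moved the split over all genes from 2588 higher and 2742 lower to 3139 and 2119.

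Other genes of the same machinery, from lists of further factors, were also counted in replicates 3 and 4. They were chosen with earlier results in view. Over all tested genes, 11% were called higher and 9% lower there. Of 80 further nucleolar assembly factors, 54 were called higher and 0 lower, with a median log2 fold change of 0.180 (0.154 over all 6 libraries); Utp6 was at 0.33 (SE 0.04) and Nifk at 0.29 (SE 0.04), and both were higher in every shCxxc5 library. Of 18 further genes of RNA polymerase I, its shared subunits and its factors, 9 were called higher and 0 lower (median 0.161, and 0.099 over all 6 libraries). Ubtf, which encodes the factor that opens ribosomal gene chromatin, lay at 334, 261 and 258 CPM in shCtrl and 272, 307 and 301 CPM in shCxxc5, lower in pair 2 like both catalytic subunit genes. Cd3eap, for another subunit of the enzyme, was at 0.40 (SE 0.06) in replicates 3 and 4 and did not overlap between the groups.

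RNA polymerase III makes transfer RNAs and the smallest RNA of the large ribosomal subunit. Of 22 genes of its machinery, 8 were called higher and 0 lower in replicates 3 and 4 (median 0.104, and 0.060 over all 6 libraries), with Gtf3c4 at 0.35 (SE 0.05). The structural genes of the ribosome stood nearer to the background, which was 11% of all tested genes called higher and 9% called lower there. Of 79 cytosolic ribosomal protein genes, 8 were called higher and 5 lower there, with a median of 0.022 (0.015 over all 6 libraries); the smallest p-values were those of Rpl7 (0.18, SE 0.03) and Rpl23 (0.20, SE 0.04). Over all 6 libraries edgeR called 0 genes of each of these lists. Many ribosomal protein genes have pseudogene copies, and the treatment of reads with several matches is not known here, so their counts are uncertain. Their counts were also very uneven. Rpl24 had 9 to 53 counts per library and Rps16 had 24 to 60, beside 39099 to 67370 for Rpl4. The median of the 79 genes therefore rests in part on genes with few counts, and the cause of the low counts was not tested.

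**Figure D5:**
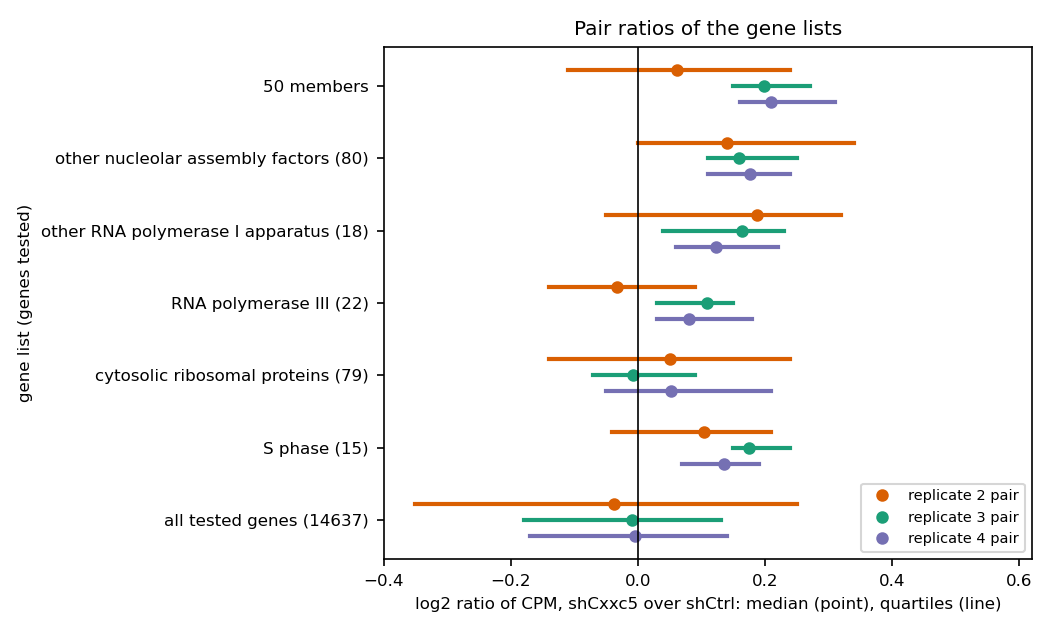
Median (point) and quartiles (line) of the log2 ratio of CPM, shCxxc5 over shCtrl, for the 50 genes, 5 further lists and all 14637 tested genes, by pair of equal replicate number. In pairs 3 and 4 the 50 genes have medians of 0.199 and 0.209, and cytosolic ribosomal protein genes -0.007 and 0.052.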

How the data were processed

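Messenger RNA of 6 mouse LSK libraries was deposited as raw read counts per Ensembl gene. The submitters' processing notes name STAR 2.5.2b, featureCounts 1.5.1, DESeq2 and the build GRCm38. The kit marks strand, per the labels' protocols, but the strand setting of the counting is not given in the sources used here. Symbols and exon lengths came from GENCODE M21, which matched 49412 of 49671 identifiers. The main test was the quasi-likelihood test of edgeR 4.0.16 (R 4.3.3; TMM, filterByExpr, robust fitting, group as the single term), with Benjamini-Hochberg adjustment over all genes and a threshold of 0.05. SE is the absolute log2 fold change over the square root of the F statistic. Pair ratios use log2 CPM with a prior count of 2. DESeq2 1.42.0 and limma 3.58.1 were alternatives, and the code was tested on simulated counts.

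The members, the lists and the comparison of replicates 3 and 4 were chosen with earlier results of these data known. Values by library are given for Ftsj3, both RNA polymerase I subunits, the members of smallest p in replicates 3 and 4 in each role (4 for the 2 large roles, otherwise 2) and the 4 of largest difference in replicate 2. For other lists 2 genes were named likewise, of which 1 is not reported here. Deviations of libraries 2, 3 and 4 from their group means correlated at 0.670, 0.554 and 0.489 between the groups. Libraries 3 and 4 of opposite groups correlated at 0.489 and 0.475, about as well as those of equal number. The check therefore sets replicate 2 apart and cannot tell whether numbers 3 and 4 pair the samples. Counts carry no molecular identifiers.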

Additional observations from a re-analysis of the deposited data

How the results depend on the processing

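The direction of the median difference of the 50 genes did not turn in any comparison under the alternatives run, but for replicate 2 against the others it came close to 0. There the median moved from -0.088 to -0.026 with library totals alone and to -0.009 without shCxxc5 replicate 2. Over all 6 libraries, edgeR with the replicate block called 0 members, as did the fit without it, and DESeq2 called 1 (Ftsj3) with and without the block; the median was 0.127 to 0.214 when each library was left out. In replicates 3 and 4, the replicate block left 41 calls, DESeq2 gave 32, library totals alone 36, and leaving out each library gave 31 to 35, with 0 lower throughout. In these fits edgeR's block changed the call of 0 of the 50 members, while over all genes in replicates 3 and 4 it gave 1790 higher and 1510 lower; it was not run where replicate 2 is itself compared. For replicate 2 against the others, members called higher numbered 4 by DESeq2, with library totals alone and without a filter. Members called lower numbered 4 with library totals alone and 0 without the group term. Leaving out each library gave 2 to 17 higher and 2 to 30 lower. Direction turned there, with a call on either side, for 7 members, with log2 differences of -0.291 to 0.281 for Ncl, -0.128 to 0.153 for Utp20, -0.115 to 0.252 for Bop1, -0.277 to 0.184 for Polr1b, -0.291 to 0.201 for Mybbp1a, -0.606 to 0.121 for Ddx21 and -0.180 to 0.130 for Nop2. For the interaction, DESeq2 called 2 higher and 11 lower, against 5 and 22 by edgeR. Over all genes in replicates 3 and 4, DESeq2 called 769 higher and 584 lower, against 1555 and 1278 by edgeR, and leaving out each library gave 800 to 1133 higher and 671 to 910 lower. For replicate 2 against the others, leaving out each library gave 1539 to 4307 genes higher and 1644 to 4509 lower. DESeq2 called 1214 and 1176 genes for the interaction. Over all 6 libraries it called 5 and 14 genes, or 21 and 126 with the block. The cause of these shifts was not tested. Over all 6 libraries, edgeR called 0 members at a spread that includes replicate 2.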
